A study of Mus musculus with 36 samples.

Results

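The cytosolic ribosomal protein genes were examined in dendritic cells (DCs) grown from mouse bone marrow. They were taken by symbol: array rows annotated with exactly 1 gene whose name is that of a protein of the large (Rpl, Rplp) or the small (Rps, Rpsa) subunit, without the Rps6k kinases and without pseudogene symbols, and, where a gene had several rows, the row with the highest mean over the 36 arrays. The rule found 61 of 19938 genes. Of these, 54 are canonical components (33 of the large and 21 of the small subunit) and 7 are paralogs or look-alikes of a canonical gene (Rpl3l, Rpl7l1, Rpl10l, Rpl32l, Rpl39l, Rps4l and Rps27l). Canonical genes such as Rpl3, Rpl11, Rpl13a and Rps27 had no row of their own under this rule and were not analysed here.

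The cells came from Balb/c mice aged 10 to 12 weeks and were cultured with granulocyte-macrophage colony-stimulating factor at 100 ng/ml until day 6. Part of the cultures received human soluble thrombomodulin (sTM), the extracellular portion of the receptor, at 200 nM from day 4, and the others stayed untreated. For the sorted samples, an antibody against thrombomodulin (TM) and magnetic beads parted the day 6 cultures into TM+ and TM- DCs, each over 93% pure. There were 20 sorted arrays, namely 4 TM+ and 4 TM- arrays from untreated cultures (experiments 3 and 4) and 6 TM+ and 6 TM- arrays from sTM cultures (experiments 2, 3 and 4). Another 16 arrays held unsorted DCs, 8 untreated and 8 sTM, from experiments 1, 2 and 3. Arrays of one group and experiment are labelled as biological replicates, but no source says that they came from different cultures or mice, so that p-values measure the spread between arrays, which may be technical.

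Ribosomal proteins coat the ribosomal RNA and make up, with it, the particle that translates messenger RNA. Their genes are transcribed at high and roughly matched levels, their messenger RNAs usually start with a stretch of pyrimidines (the 5' terminal oligopyrimidine, or TOP, motif) that ties their translation to mTOR signalling, and their output rises with growth and division. In DCs, protein synthesis changes with maturation, when dividing precursors become resting, antigen-presenting cells.

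The promoters of members are shown because the genes below moved largely together, and because the pyrimidine start is the feature by which this family is usually recognised. Each line runs 5' to 3' on the strand of the gene, from 50 bases before the RefSeq start to the 15th base from it (build GRCm38.p6), and capitals mark an unbroken run of at least 8 C or T that lies in, or reaches into, the 15 bases on either side of the start. The first 7 genes had a higher signal in TM+ DCs, and the last 4 did not pass the test.
Rpl10a (chr17:28328421-28328485, plus strand): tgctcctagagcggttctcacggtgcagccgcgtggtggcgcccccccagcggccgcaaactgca
Rpl12 (chr2:32961662-32961726, plus strand): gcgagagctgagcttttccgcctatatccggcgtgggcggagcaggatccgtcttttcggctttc
Rpl7l1 (chr17:46782642-46782706, minus strand): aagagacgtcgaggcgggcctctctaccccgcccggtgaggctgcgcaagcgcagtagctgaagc
Rpl5 (chr5:107900478-107900542, plus strand): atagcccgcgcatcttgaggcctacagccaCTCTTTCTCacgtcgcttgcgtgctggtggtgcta
Rps18 (chr17:33955651-33955715, minus strand): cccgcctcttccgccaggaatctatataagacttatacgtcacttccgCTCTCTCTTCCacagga
Rpl4 (chr9:64173337-64173401, plus strand): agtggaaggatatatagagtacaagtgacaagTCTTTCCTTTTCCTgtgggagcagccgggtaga
Rps9 (chr7:3703991-3704055, plus strand): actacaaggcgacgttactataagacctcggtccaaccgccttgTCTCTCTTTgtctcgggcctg
Rplp2 (chr7:141447601-141447665, plus strand): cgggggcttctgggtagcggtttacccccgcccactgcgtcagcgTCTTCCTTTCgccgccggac
Rps19 (chr7:24884542-24884606, plus strand): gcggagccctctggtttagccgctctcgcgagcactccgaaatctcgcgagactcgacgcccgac
Rpl24 (chr16:55966225-55966289, plus strand): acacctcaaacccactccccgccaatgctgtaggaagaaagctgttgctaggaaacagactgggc
Rpl41 (chr10:128549154-128549218, minus strand): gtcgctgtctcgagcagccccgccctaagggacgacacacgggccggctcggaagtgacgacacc

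Of the 61 genes, 49 had an entry in the RefSeq promoter table, with 58 promoters in all. Such a pyrimidine run stood near the start in 21 of the 58 (36.2%), against 17.6% of all 32851 promoters in the table. The letters ACTTCCG or, on the other strand, CGGAAGT, which resemble the core bound by ETS factors such as GABP, stood on either strand of 18 of the 300-base promoters of members (31.0%) and of 6.42% of all promoters. The letters AAGATGGC or GCCATCTT, which resemble the core bound by YY1, stood in 3 (5.17%), against 2.75% of all promoters. ACTTCCG cannot lie inside a pyrimidine run, while the ends of the other words can share letters with one, and a match is a description of sequence and not a measured binding site. The 20 members with the pyrimidine run had a median difference between TM+ and TM- DCs of 0.27 on the log2 scale and 9 of 20 passed the test, and those with an entry but without the run had a median of 0.24 and 16 of 29 passed.

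The medians of the arrays over all genes ran from 6.88 to 7.15 on the log2 scale, and no array was left out. This range is not small beside the differences between fractions described below. Within one experiment and treatment, the mean of these medians differed between TM+ and TM- DCs by -0.0355 to 0.0543. One library, replicate 3-2 of the sTM-treated TM- DCs, stood apart. It had the highest median of the 36 arrays, 7.15, and gave the lowest of the 20 sorted values for 21 of the 61 genes. Some of the values that move with it are given below without it as well. Without it 29 members were higher for sorting (20.2% of all genes) in place of the 28 described below, and the median sorting difference was 0.21. The sorting antigen itself, Thbd, read 5.76 to 6.92 in the 10 TM+ arrays and 5.65 to 6.50 in the 10 TM- arrays, and its difference of 0.24 ± 0.12 (SE) did not pass the test (adjusted p = 0.12); the sort was made on the surface protein. The mean log2 level of the DC markers overlapped between the fractions, between 9.94 and 10.27 in TM+ and between 9.89 and 10.26 in TM- DCs. Single DC markers moved in both directions under this mean. Of 10, 6 were higher in TM+ DCs, against 18.6% of all genes, and 3 were lower, against 18.7%. In the fit over all sorted arrays, the lists of B cell, T and NK cell and erythroid markers held no gene that differed between the fractions, and their means on the sorted arrays did not exceed 6.20. In experiment 4 alone, 2 of 5 T and NK cell markers and 1 of 2 erythroid markers were lower in TM+ DCs. Of all genes, 29.3% were lower in that experiment, and these lists are too short to be set apart from that share.

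Ribosomal protein genes of both subunits had a higher signal in TM+ than in TM- DCs. Over the sorted arrays, 28 of 61 genes (45.9%) were higher in TM+ DCs at an adjusted p under 0.05, where 18.6% of all genes were, and 1 gene (1.64%) was lower, where 18.7% of all genes were. The differences were modest. The median over the 61 genes was 0.22 on the log2 scale against -0.08 over all genes tested, and only Rpl10a, Rpl12 and Rpl7l1 differed by 1.5-fold or more. Of the 54 canonical genes, 53 had a difference above 0, with a median of 0.22 for the 33 large-subunit genes (16 passed) and 0.27 for the 21 small-subunit genes (10 passed). These values are read relative to the rest of each array. The authors normalised the arrays to one another, so that a shift of total RNA per cell would not be visible. The deposited arrays still did not share a common distribution, as their medians over all genes ran from 6.88 to 7.15. In bulk samples, fewer cells of a type and less RNA per cell cannot be told apart.

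**Figure D1:**
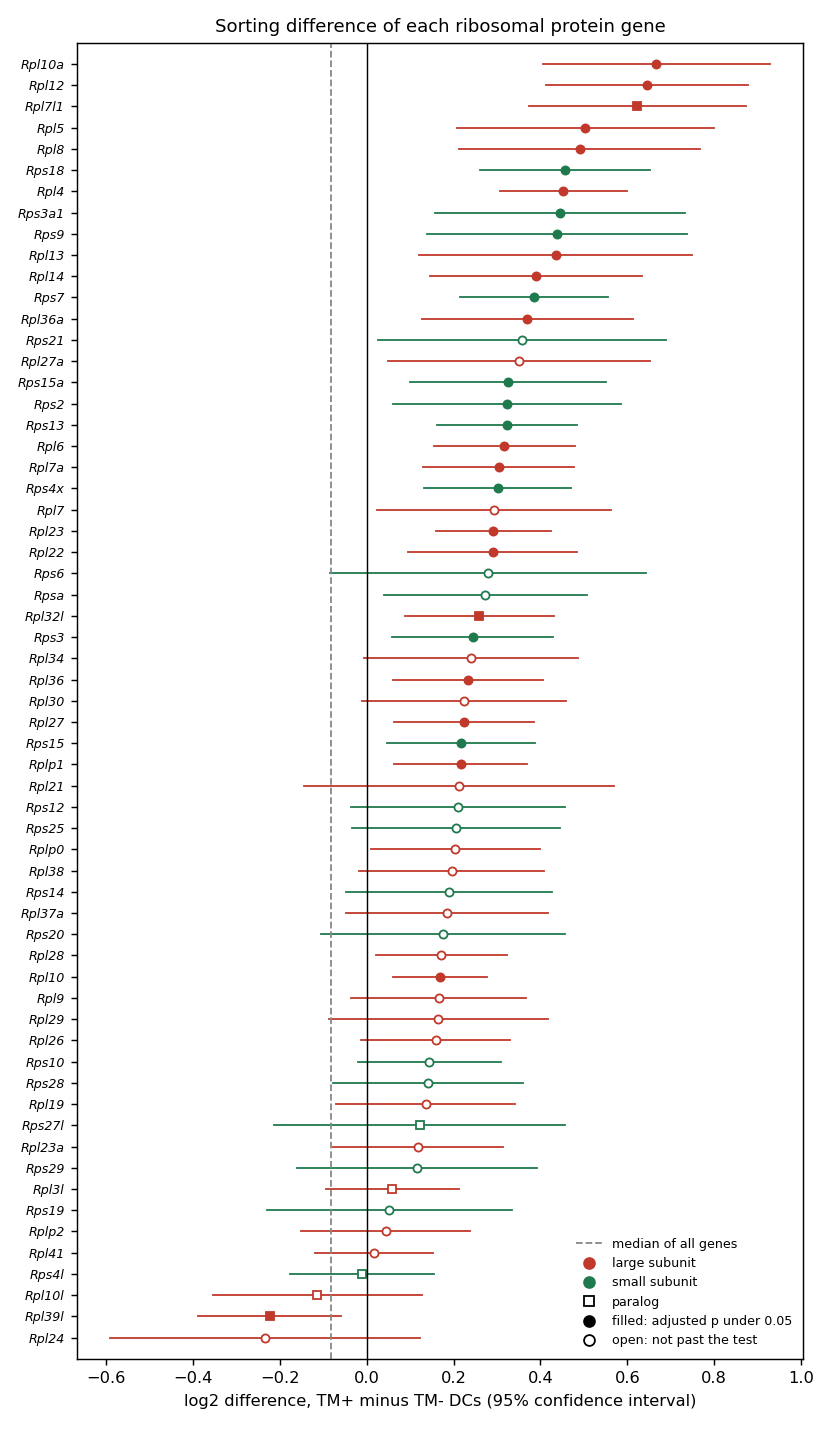
Log2 difference between TM+ and TM- DCs (x axis) for each of the 61 genes (y axis), with 95% confidence intervals from the fit to the 20 sorted arrays. Filled symbols passed the test at an adjusted p under 0.05, squares are paralogs, and the dashed line is the median of all genes at -0.08; 57 of 61 points lie above 0.

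The count changed with the scaling of the arrays and without 1 experiment. After quantile normalization 12 members were higher, beside 3372 of 19938 genes, which is close to the share over all genes, and the median was 0.15 beside -0.03 for all genes. Without experiment 4 the fit held 6 members that were higher, beside 1484 of all genes, and the median was 0.28. Rpl12, Rpl7l1, Rpl5, Rpl8, Rps3a1, Rps9, Rpl13 and Rpl39l did not pass in that fit, and Rpl10a, Rpl4 and Rps18 did.

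**Figure D2:**
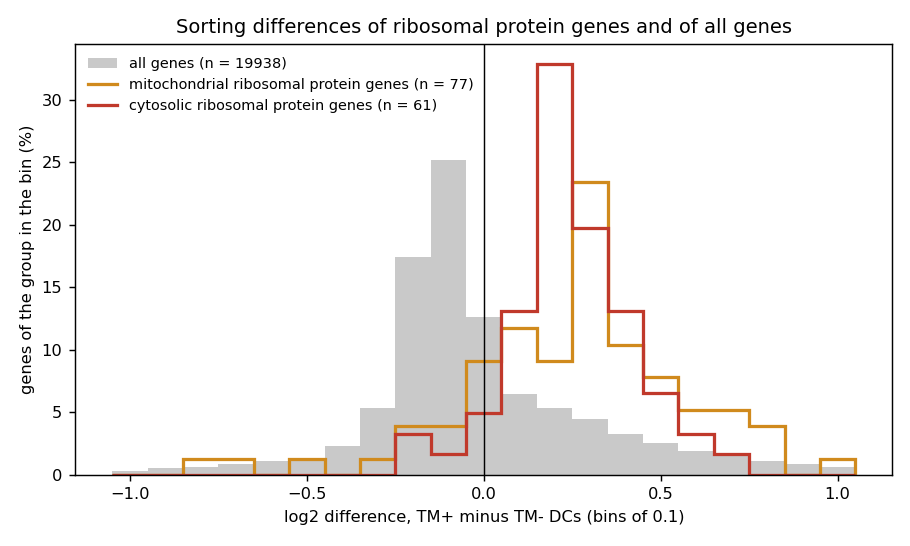
Share of genes (y axis, %) by log2 difference between TM+ and TM- DCs (x axis, bins of 0.1) for all 19938 genes (grey), the 61 cytosolic ribosomal protein genes (red) and the 77 mitochondrial ones (orange). Genes beyond the axis are not drawn; the red curve peaks in the bin centred on 0.2, and the grey one below 0.

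The mean log2 signal of the 54 canonical genes showed the same difference array by array. In untreated cultures it was 11.35, 11.38, 11.70 and 11.72 in TM+ DCs and 11.20, 11.08, 11.61 and 11.58 in TM- DCs, the first pair of each being from experiment 3 and the second from experiment 4. With sTM the lowest, median and highest of the 6 arrays were 11.22, 11.73 and 11.85 in TM+ and 10.77, 11.27 and 11.54 in TM- DCs. The fractions overlapped when experiments were mixed, but within each of the 5 combinations of experiment and treatment both TM+ arrays lay above both TM- arrays. The TM+ mean exceeded the TM- mean by 0.46 in experiment 2 with sTM, by 0.22 and 0.32 in experiment 3 without and with sTM, and by 0.12 and 0.30 in experiment 4. Without the library that stood apart, the value of 0.32 was 0.18. Of the 61 genes, 33 (54.1%) had a higher TM+ than TM- mean in all 5 combinations, as did 13.1% of all genes. None was lower in all 5, where 18.3% of all genes were. Without that library 32 genes were higher in all 5, beside 15.3% of all genes.

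**Figure D3:**
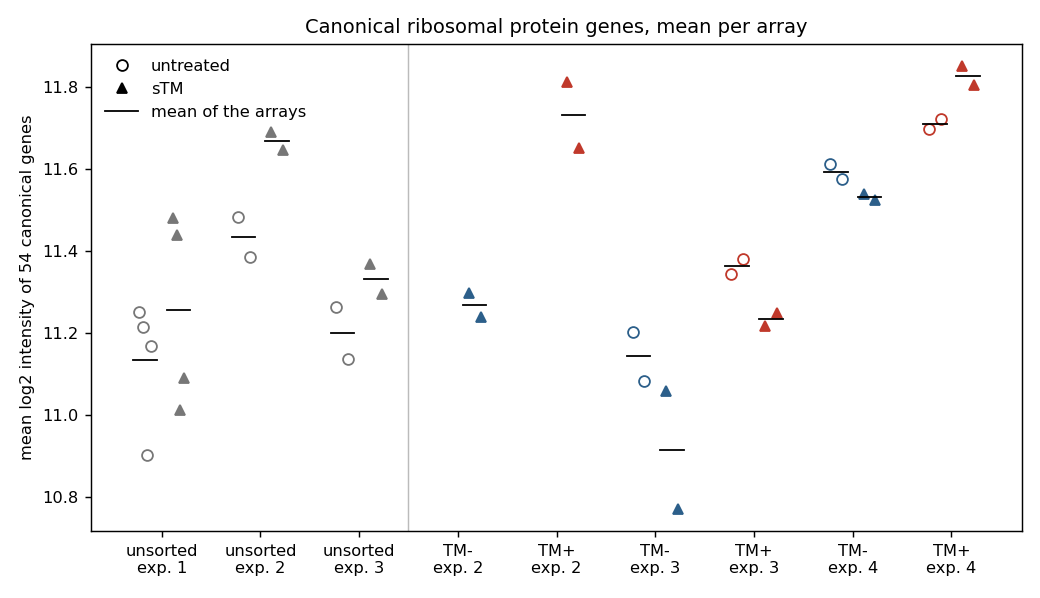
Mean log2 intensity of the 54 canonical genes (y axis) in each of the 36 arrays, by fraction and experiment (x axis); open circles are untreated and filled triangles sTM-treated cultures, and bars are means of the arrays shown. TM+ arrays (red) lie above the TM- arrays (blue) of the same experiment and treatment, and experiment 4 lies above experiment 3.

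The uL1 protein Rpl10a, which forms part of the mobile L1 stalk beside the exit site for transfer RNA, had the largest difference. Its signal in untreated cultures was 12.69, 12.92, 13.04 and 13.11 in TM+ DCs and 12.41, 12.53, 12.72 and 12.72 in TM- DCs. In sTM cultures it was 12.52, 12.78 and 13.24 (lowest, median and highest) in TM+ and 10.93, 12.15 and 12.53 in TM- DCs. The 2 lowest values were those of experiment 2, where the fractions lay furthest apart, by 1.61. The fitted difference was 0.67 ± 0.13 (SE; 1.59-fold, adjusted p = 0.000266), and it was above 0 in 5 of 5 combinations.

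Rpl12, which encodes the uL11 protein at the base of the stalk where elongation factors bind, was the next. It read 7.33, 7.46, 7.75 and 7.63 in untreated TM+ DCs and 6.86, 6.37, 6.72 and 6.47 in untreated TM- DCs. In sTM cultures the lowest, median and highest values were 6.46, 6.80 and 7.29 in TM+ and 6.25, 6.41 and 7.01 in TM- DCs. The fractions were apart without sTM and overlapped with it, and the fitted difference was 0.65 ± 0.11 (1.56-fold, adjusted p = 0.000107). The signal of this row lay close to the median of all genes on the arrays, and whether it reads Rpl12 alone or related sequence was not tested. Without experiment 4 its difference was 0.45 (adjusted p = 0.0517).

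Rpl4, a protein of the peptide exit tunnel, differed with the smallest p among the canonical genes. Its values were 11.65, 11.55, 11.84 and 11.78 in untreated TM+ DCs and 11.32, 11.18, 11.43 and 11.36 in untreated TM- DCs, so that these groups did not overlap. With sTM they were 11.46, 11.90 and 12.28 in TM+ and 11.11, 11.39 and 11.63 in TM- DCs. The difference was 0.45 ± 0.07 (1.37-fold, adjusted p = 3.2e-05).

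Rps18, a protein of the head of the small subunit, read 12.29, 12.46, 12.60 and 12.62 in untreated TM+ DCs and 11.80, 11.83, 12.43 and 12.47 in untreated TM- DCs. In sTM cultures the values were 11.99, 12.83 and 13.30 against 11.62, 12.33 and 12.45. In both cases the ranges overlapped across experiments and not within one, and the difference was 0.46 ± 0.09 (adjusted p = 0.00063).

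Rpl5, which carries the 5S ribosomal RNA into the large subunit and, outside the ribosome, binds the p53 regulator Mdm2, had values of 11.79, 11.68, 12.08 and 12.09 in untreated TM+ DCs and 11.58, 11.31, 11.80 and 11.65 in untreated TM- DCs. With sTM they were 11.54, 12.26 and 12.51 against 9.98, 11.74 and 11.94, where 9.98 is the library that stood apart. The difference was 0.50 ± 0.14 (adjusted p = 0.00838), and 0.39 (adjusted p = 0.000579) without that library.

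The other genes among the 10 largest rises were Rpl8 (0.49 ± 0.13, adjusted p = 0.00627), a protein close to the peptidyl transferase centre, Rps3a1 (0.45 ± 0.14, adjusted p = 0.0154), a protein of the small subunit near the exit of the messenger RNA, Rps9 (0.44 ± 0.14, adjusted p = 0.0215), a protein of the entry channel, and Rpl13 (0.44 ± 0.15, adjusted p = 0.0286). Some of these calls rested on single arrays. Rps9 was no longer past the test without replicate 3-2 of untreated TM+ DCs (adjusted p = 0.051), and in its sTM-treated TM- group the library that stood apart read 9.98, where the other arrays read 11.22 to 11.89; without that library its difference was 0.33 (adjusted p = 0.00588). Rpl13 was lost when any of 3 arrays was left out, namely replicate 2-1 of sTM-treated TM+ DCs, replicate 3-2 of untreated TM- DCs and replicate 3-2 of untreated TM+ DCs (adjusted p = 0.0538 to 0.0543).

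**Figure D4:**
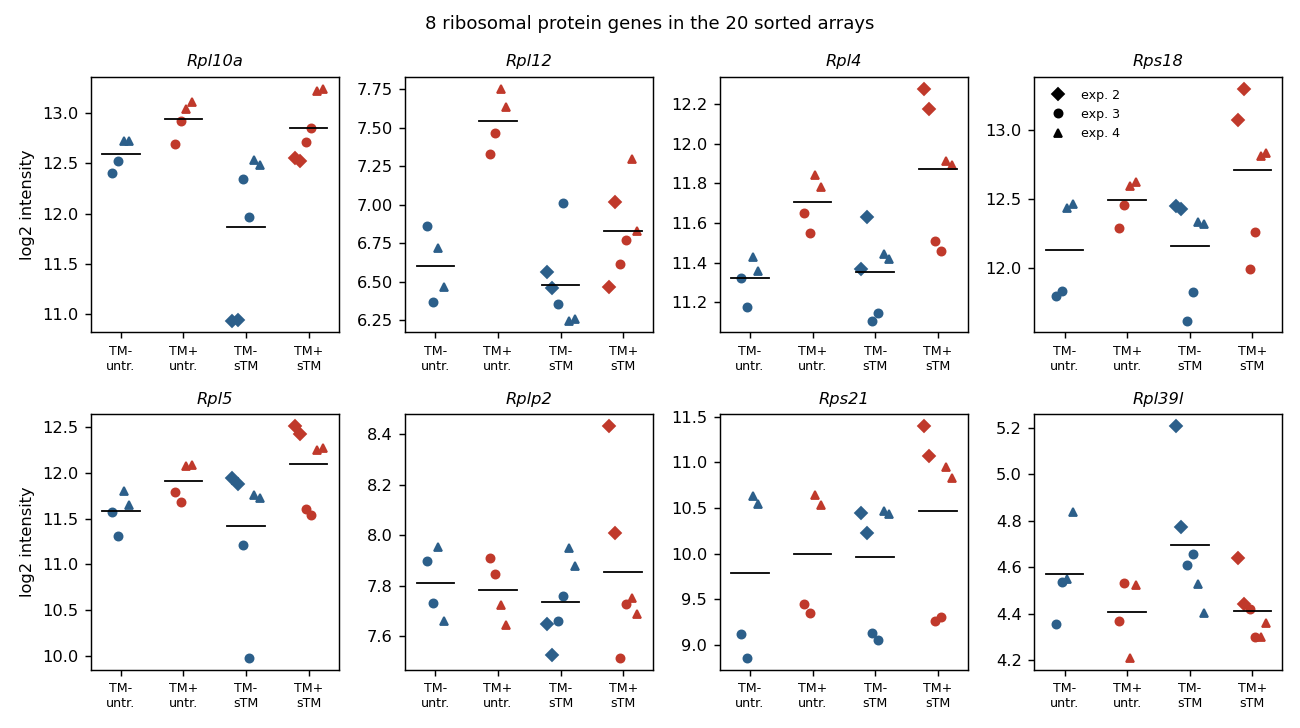
Log2 intensity (y axis) of 8 genes in the 20 sorted arrays, by fraction and treatment (x axis; untr., untreated); the shape gives the experiment, red is TM+, blue is TM-, and bars are group means. Rpl10a, Rpl4 and Rps18 are higher in TM+ DCs within each experiment, the fractions of Rplp2 overlap, and Rps21 separates by experiment.

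Of the 3 stalk proteins, which recruit translation factors, 1 passed the test, and whether they differ from one another was not tested. Rplp1 was higher in TM+ DCs (0.22 ± 0.07, adjusted p = 0.0258). Rplp0, the base of that stalk, differed by 0.20 ± 0.09 (adjusted p = 0.089), and Rplp2, the partner of Rplp1, by 0.04 ± 0.09 (adjusted p = 0.714), neither past the test. Rplp2 read 7.91, 7.85, 7.72 and 7.64 in untreated TM+ DCs and 7.90, 7.73, 7.95 and 7.66 in untreated TM- DCs, and the 95% confidence interval of its difference ran from -0.15 to 0.24. The row of Rplp2 had a mean of 7.83 over the 36 arrays, beside 12.57 for Rplp0 and 13.16 for Rplp1. How well that row reads Rplp2 was not tested.

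Rps3, which lines the messenger RNA entry channel, was higher in TM+ DCs (0.24 ± 0.09, adjusted p = 0.036). Rpsa, the laminin receptor homologue of the small subunit, had a difference of 0.27 ± 0.11 (adjusted p = 0.0611) that did not pass. Rps6, the substrate of the S6 kinases downstream of mTOR, differed by 0.28 ± 0.17 (adjusted p = 0.204). The library that stood apart read 10.99 for this gene, where the other sTM-treated TM- arrays read 12.45 to 13.20, and without it the difference was 0.13 ± 0.08 (adjusted p = 0.203). Rps19, whose human counterpart is mutated in Diamond-Blackfan anaemia, differed by 0.05 ± 0.14 (adjusted p = 0.766) and was higher in 2 of 5 combinations.

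Rpl24, a bridge protein between the subunits, was the canonical gene below 0. It read 9.97, 10.28, 11.07 and 11.20 in untreated TM+ DCs and 10.48, 10.47, 11.60 and 11.64 in untreated TM- DCs. The TM+ values were lower within each experiment. With sTM, experiment 2 ran the other way, at 12.44 and 12.23 in TM+ against 12.25 and 12.02 in TM- DCs, and the difference over all sorted arrays did not pass (-0.23 ± 0.17, adjusted p = 0.276).

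Of the 7 paralogs, 2 were higher (28.6%, against 18.6% of all genes) and 1 was lower (14.3%, against 18.7%) in TM+ DCs, shares that over so few genes lie near those of all genes. Rpl7l1, a nucleolar relative of Rpl7, read 10.65, 10.63, 11.08 and 10.95 in untreated TM+ DCs and 10.41, 10.36, 9.68 and 9.73 in untreated TM- DCs. The groups did not overlap without sTM and did with it, at 9.95 to 10.80 against 9.25 to 10.54, and the difference over all sorted arrays was 0.62 ± 0.12 (1.54-fold, adjusted p = 0.000325). Rpl32l differed by 0.26 ± 0.08 (adjusted p = 0.0177). Rpl39l, a relative of Rpl39 known from testis, was lower by 0.22 ± 0.08 on the log2 scale (adjusted p = 0.0324), at 4.37, 4.53, 4.21 and 4.52 in untreated TM+ and 4.35, 4.54, 4.55 and 4.84 in untreated TM- DCs, where the groups overlapped. It was the only member whose mean signal lay in the dimmest 25% of genes, and its call was lost without any 1 of 5 arrays (replicates 3-1 and 4-1 of untreated TM+, 4-1 and 4-2 of untreated TM- and 2-2 of sTM-treated TM+ DCs; adjusted p = 0.0501 to 0.0989), and also after centring the arrays (adjusted p = 0.0744) or quantile normalization (adjusted p = 0.131).

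Rps27l (0.12 ± 0.16, adjusted p = 0.545), Rpl3l (0.06 ± 0.07, adjusted p = 0.517), Rps4l (-0.01 ± 0.08, adjusted p = 0.926) and Rpl10l (-0.11 ± 0.12, adjusted p = 0.434) did not pass. A dimmer row of Rps4l did, at 0.20 ± 0.07 (adjusted p = 0.0354 over all single-gene rows). Rps27l is a p53 target, Rpl3l is the form of Rpl3 found in striated muscle, Rpl10l substitutes for Rpl10 in male germ cells, and RefSeq lists Rps4l as a transcribed pseudogene. Probes for such genes and for the processed pseudogenes of this family may read each other's transcripts, so that the values of single members are uncertain.

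The ratio of a paralog to its partner was tested in the 3 pairs with both genes measured, with an exact two-sided permutation of the fraction labels within experiment and treatment (7776 arrangements, smallest possible p = 0.000257) and adjustment over the 3 pairs. The log2 ratio of Rps4l to Rps4x was lower in TM+ DCs by a difference of -0.30, below 0 in 5 of 5 combinations (permutation p = 0.00129, adjusted p = 0.00386). That of Rpl10l to Rpl10 had a difference of -0.28, also below 0 in 5 of 5 (permutation p = 0.0108, adjusted p = 0.0162). The ratio of Rpl7l1 to Rpl7 differed by 0.27 and was above 0 in 4 of 5 combinations (permutation p = 0.157, adjusted p = 0.157). In the first 2 pairs the partner was the gene that was higher in TM+ DCs, Rps4x by 0.30 ± 0.08 (adjusted p = 0.00597) and Rpl10 by 0.17 ± 0.05 (adjusted p = 0.0148), and after quantile normalization neither ratio passed (adjusted p = 0.164 and 0.233). Both ratios depend on what the row of the paralog reads. With the other row of Rps4l, chosen after seeing the data, the difference was -0.11, below 0 in 4 of 5 combinations and not past the test (permutation p = 0.0658, adjusted p = 0.0988). The row of Rpl10l had a mean of 5.97, inside the range of the sorted arrays' means of B cell markers, 5.42 to 6.20, and whether it reads transcript of Rpl10l was not tested, so that this ratio shows no change of Rpl10l itself.

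Several members were represented by more than 1 array row, and all of these rows were tested as well. The 61 genes had 217 rows with a single gene name, and 39 genes had more than 1. Of the 217 rows, 91 were higher in TM+ DCs (41.9%), against 18.9% of all single-gene rows, and 1 was lower. Among the 156 rows that had not been chosen, 63 were higher, 0 were lower, and 154 had a difference above 0. All rows of a gene were above 0 for 37 of the 39 genes, and no gene had rows that passed in opposite directions. Several rows of Rps12 gave the same mean and difference, as did the rows of Rpl41. Rows of a gene are therefore not independent, and their counts add no separate evidence.

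The difference between fractions was tested in each treatment. In untreated cultures 3 members (4.92%; Rpl12, Rpl7l1 and Rpl4) were higher in TM+ DCs, where 13.2% of all genes were, and the median was 0.15. In sTM cultures 24 (39.3%) were higher, against 11.6% of all genes, and Rpl39l was lower, against 12.4%, with a median of 0.35. The strongest of these were Rpl10a (0.99 ± 0.16, adjusted p = 0.000135), Rpl4 (0.52 ± 0.09, adjusted p = 0.000247), Rps7 (0.52 ± 0.10, adjusted p = 0.00103), Rpl23 (0.38 ± 0.08, adjusted p = 0.00174), Rps18 (0.55 ± 0.12, adjusted p = 0.00206) and Rpl6 (0.43 ± 0.10, adjusted p = 0.00353). Without the library that stood apart, 25 members were higher in sTM cultures, against 13.1% of all genes. In that fit 0 were lower, against 10.5%, and the median was 0.27. The counts do not show that the treatments differ: the interaction passed in 0 members by limma, against 0.01% of all genes (2 members at an unadjusted p under 0.05). Rpl12 (-0.59 ± 0.22, adjusted p = 0.619), Rpl10a (0.64 ± 0.25, adjusted p = 0.668) and Rps10 (0.31 ± 0.16, adjusted p = 0.821) came nearest. The sorted arrays of experiment 2 all came from sTM cultures and had the widest gap, and without them 11 members (18%) passed in sTM cultures, beside 18.2% of all genes in either direction.

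Experiments 3 and 4 held all 4 sorted groups, and the fractions differed in both. In experiment 3, 20 members were higher in TM+ DCs, against 11.4% of all genes. The median difference there was 0.23, and 0.20 without the library that stood apart. In experiment 4, 25 were higher, against 24.6% of all genes, and Rpl39l and Rpl24 were lower, against 29.3%. The difference between fractions was larger in experiment 4 than in 3 for 2 members, against 16.5% of all genes. These were Rpl7l1 (by 0.80 ± 0.12, adjusted p = 8.35e-05) and Rps27l (by 0.69 ± 0.15, adjusted p = 0.00228), and no canonical gene passed. Rps27l was 10.84 and 10.75 in TM+ against 11.30 and 11.02 in TM- DCs of untreated experiment 3, and 11.85 and 11.84 against 11.11 and 11.17 in experiment 4, so that its direction turned. The count for this test rose without replicate 3-1 of sTM-treated TM- DCs. In that fit the library that stood apart is the only one of its group and experiment, and the count is not read further.

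For most of the genes the experiments lay further apart than the fractions. Between experiments 4 and 3, 45 members (73.8%) were higher in experiment 4, against 11.8% of all genes, and 1, Rpl28, was lower, against 24.2%. The median difference was 0.42 on the log2 scale against -0.05 for all genes. Of the members, 7 differed by 2-fold or more, and in 42 of 61 the experiment difference was larger in size than the difference between fractions. These last counts were not made over all genes, and nothing particular to the family is read from them. Without the library that stood apart, the median of the members was 0.35. The genes with the smallest p were Rps21 (1.44 ± 0.06), Rps29 (1.32 ± 0.05), Rpl27a (1.24 ± 0.06), Rpl38 (0.94 ± 0.05), Rpl24 (1.13 ± 0.06) and Rps28 (1.07 ± 0.06), with adjusted p between 3.45e-11 and 1.54e-09. Several of these encode very small proteins. Rps21, for example, read 9.11 and 8.85 in untreated TM- DCs of experiment 3 and 10.64 and 10.54 in those of experiment 4, while its TM+ values in experiment 4 were the same to 2 decimals (10.64 and 10.54). What else changed from one experiment to the next was not stated by any source at hand.

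**Figure D5:**
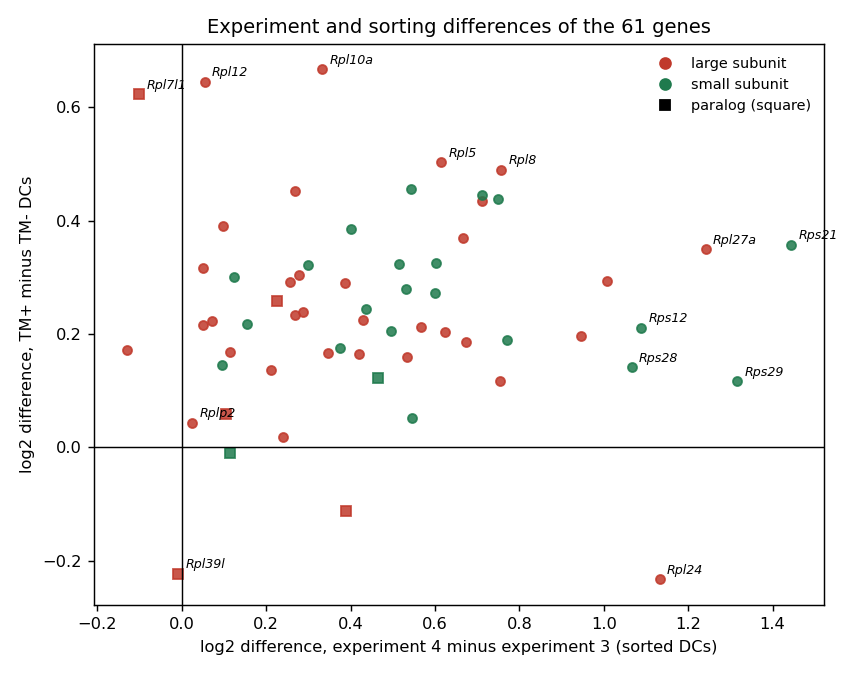
Log2 difference between experiments 4 and 3 in sorted DCs (x axis) and between TM+ and TM- DCs (y axis) for each of the 61 genes; red is the large and green the small subunit, and squares are paralogs. Most points lie right of 0 and above 0, and the genes that moved most between experiments, such as Rps21 and Rps29, are not those that moved most between fractions, such as Rpl10a and Rpl12.

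sTM treatment was tested in sorted and unsorted DCs. In sorted DCs 0 members passed by limma, against 0.015% of all genes (1 member at an unadjusted p under 0.05), with a median of -0.06, or -0.03 without the library that stood apart. Rpl12 (-0.41 ± 0.12, adjusted p = 0.23), Rpl32l (-0.18 ± 0.09, adjusted p = 0.623) and Rpl27 (-0.14 ± 0.08, adjusted p = 0.74) had the smallest p. Within TM+ DCs 1 member passed, against 0.471% of all genes: Rpl12 fell by 0.70 ± 0.16 on the log2 scale with sTM (adjusted p = 0.0434), from 7.33 to 7.75 in the 4 untreated arrays to 6.46 to 7.29 in the 6 treated ones, which did not overlap. Within TM- DCs 0 passed by limma, against 0% of all genes (5 members at an unadjusted p under 0.05). The median was -0.14, against 0.03 for all genes, or -0.10 without that library.

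In experiment 3 alone, 3 members were lower with sTM, against 4.35% of all genes, namely Rpl27a (-0.42 ± 0.09, adjusted p = 0.00362), Rps3a1 (-0.40 ± 0.10, adjusted p = 0.00927) and Rpl22 (-0.31 ± 0.08, adjusted p = 0.0197), and the median over the 61 genes was -0.16. Without the library that stood apart, the differences were -0.33 for Rpl27a, -0.33 for Rps3a1 and -0.35 for Rpl22, and the median was -0.08. That fit leaves 1 array in a group and experiment, and its calls are not read. In experiment 4, 0 members passed by limma, against 4.04% of all genes (5 at an unadjusted p under 0.05), with a median of 0.02. The treatment difference was higher in experiment 4 than in experiment 3 for the same 3 genes, against 3.7% of all genes, by 0.51 ± 0.12 for Rpl22 (adjusted p = 0.0101), 0.48 ± 0.12 for Rpl27a (adjusted p = 0.0208) and 0.48 ± 0.14 for Rps3a1 (adjusted p = 0.0357). Both counts of 3 genes lie near the shares of all genes, and these genes are given as single values. The count for the difference between experiments also rested on single arrays. It fell without replicate 3-2 of untreated TM+, 4-1 of sTM-treated TM- or 4-2 of untreated TM- DCs. It rose without replicate 3-2 of sTM-treated TM+ DCs, and most without replicate 3-1 of sTM-treated TM- DCs. The last fit again leaves the library that stood apart as the only one of its group and experiment. Each of these fits leaves 1 array in a group and experiment, and their counts are not read further.

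In unsorted DCs no gene passed. Of the 61 genes, 59 had a higher mean with sTM, with a median of 0.14 against 0.01 for all genes, but 0 passed by limma, against 0% of all genes (4 at an unadjusted p under 0.05). Rpl14 (0.41 ± 0.14, adjusted p = 0.936), Rpl12 (0.33 ± 0.13, adjusted p = 0.991) and Rps7 (0.29 ± 0.12, adjusted p = 0.991) had the smallest p. Rpl14, for example, had lowest, median and highest values of 7.93, 8.58 and 9.23 in the 8 treated and 7.69, 8.17 and 8.61 in the 8 untreated arrays, which overlapped. The medians were 0.11, 0.21 and 0.11 in experiments 1, 2 and 3. Experiment 1 was itself split: the canonical mean was 11.48 and 11.44 in sTM replicates 1-1 and 1-2 but 11.01 and 11.09 in replicates 1-3 and 1-4, and the mean of the proliferation genes on these arrays was 9.68 and 9.56 against 7.20 and 7.32. The untreated arrays of the same numbers showed the split too, with canonical means of 11.25 and 11.22 against 10.90 and 11.17 and proliferation means of 8.76 and 8.87 against 7.28 and 7.28. Whether the unsorted and sorted treatment differences differ from one another was not tested.

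The other genes of protein synthesis were read from fixed lists. Of 16 measured genes that also carry a TOP start but encode translation factors or related proteins, 11 were higher (68.8%, against 18.6% of all genes) and 1 was lower (6.25%, against 18.7%) in TM+ DCs, with a median of 0.30. The largest were Eif3l, a subunit of the initiation factor eIF3 (0.93 ± 0.10, adjusted p = 3.11e-07), the nucleolar chaperone Npm1 (0.69 ± 0.18, adjusted p = 0.00464), the elongation factor subunit Eef1b2 (0.57 ± 0.11, adjusted p = 0.000253) and Eif4b (0.56 ± 0.08, adjusted p = 9.7e-06). The histone chaperone Nap1l1 was lower (-0.34 ± 0.09, adjusted p = 0.00579). Of 77 mitochondrial ribosomal protein genes, which are encoded in the nucleus and serve translation in mitochondria, 34 were higher (44.2%, against 18.6% of all genes) and 3 lower (3.9%, against 18.7%), with a median of 0.27. Mrpl36 (1.01 ± 0.17), Mrpl42 (0.80 ± 0.18), Mrpl23 (0.80 ± 0.09) and Mrpl20 (0.76 ± 0.17) were the largest rises, and Mrpl45 (-0.76 ± 0.14), Mrpl14 (-0.70 ± 0.11) and Mrps6 (-0.52 ± 0.10) were the falls.

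Of 21 measured regulators of ribosomal protein expression, 4 were higher (19%, against 18.6% of all genes) and 6 lower (28.6%, against 18.7%), with a median of -0.02. The share that was higher is close to that of all genes, and the genes below are given as single values. Myc, which drives transcription of ribosomal genes, was higher by 2.29 ± 0.20 (adjusted p = 1.94e-08), and its antagonists Mxd1 (-1.20 ± 0.17, adjusted p = 9.76e-06) and Mxi1 (-0.74 ± 0.12, adjusted p = 4.92e-05) were lower. Rheb, the activator of mTOR complex 1, was higher (0.77 ± 0.13, adjusted p = 9.17e-05), as were Eif4ebp2 (0.38 ± 0.10, adjusted p = 0.00435) and Gabpa (0.28 ± 0.06, adjusted p = 0.000642), the ETS factor of many ribosomal protein promoters. Mdm2 (-1.27 ± 0.17, adjusted p = 4.12e-06) and Rictor (-0.77 ± 0.09, adjusted p = 1.45e-06), a subunit of mTOR complex 2, were lower.

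Other gene groups moved with the fractions. All 23 measured proliferation genes were higher in TM+ DCs, against 18.6% of all genes, led by Ccna2 (3.65 ± 0.23), Ccnb2 (3.41 ± 0.26), Kif11 (3.09 ± 0.20) and Top2a (3.02 ± 0.18), with adjusted p between 1.29e-10 and 3.25e-09. The mean log2 level of the list was 8.77 to 10.55 in TM+ and 7.10 to 7.94 in TM- arrays, which did not overlap. Of 10 granulocyte markers, 8 (80%, against 18.6% of all genes) were higher, led by Ngp (2.17 ± 0.32), S100a9 (2.16 ± 0.31), S100a8 (2.15 ± 0.32) and Ltf (1.92 ± 0.25), and Lcn2 was lower (-0.81 ± 0.15). The mean of that list ran from 7.58 to 9.93 in TM+ and from 7.24 to 8.47 in TM- arrays. Among monocyte and macrophage markers 4 of 8 were higher (50%) and 2 lower (25%), and among DC markers 6 of 10 were higher (60%; Ciita by 0.82 ± 0.11) and 3 lower (30%; Ccr7 by -1.41 ± 0.21), where 18.6% of all genes were higher and 18.7% lower. The part of dividing cells and of granulocyte-lineage cells in the ribosomal protein differences was not tested. The mean of the proliferation list differed by 1.60 in experiment 2 with sTM, where the canonical mean differed by 0.46. In experiment 3 without and with sTM it differed by 1.62 and 1.57, beside 0.22 and 0.32 for the canonical mean. In experiment 4 the values were 2.86 and 2.30, beside 0.12 and 0.30. Whether these differences go together was not tested.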

How the data were processed

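RNA of 36 samples was hybridised to Affymetrix mouse whole-transcript arrays. The authors corrected background, normalised and summarised probes into transcript clusters by RMA (APT 1.12.0, NetAffx release 31), and deposited intensities on a linear scale. RMA normalises arrays to one another, so that a change of total RNA per cell is not visible. The deposited arrays still differed in their medians over all genes, from 6.88 to 7.15. No source states whether the arrays were normalised in a single run. The log2 of the deposited intensities was taken with no pseudocount or further scaling. Of 35556 clusters, 21789 carry 1 symbol in the platform annotation, and the cluster with the highest mean was used per symbol.

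Sorted arrays were fitted in limma 3.58.1 (statmod 1.5.0, R 4.3.3) over all 19938 genes, with 4 groups of fraction by treatment and experiment as a random block, and unsorted arrays with treatment and the same block. Experiments 3 and 4 were also fitted by 8 cells of fraction, treatment and experiment, with no block, and the unsorted arrays by 6 cells. All p-values of single genes are limma's, adjusted by Benjamini-Hochberg over all genes, and genes were called at an adjusted p under 0.05. The number of arrays limits the precision. The scripts were tested on simulated data with known changes.

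The members, gene lists and tests were chosen with earlier results of these data known, so that no list's direction is independent evidence. The genes to be named were the called members with the 10 largest rises and falls for sorting, up to 6 called members with the smallest p for other fits (3 where none was called), the paralogs with their partners, a few members of known role, and up to 4 called genes in each direction per list. Rpl32l was counted as a paralog, and the promoters shown were picked, after values were seen. Coordinates and sequences are from RefSeq (GRCm38.p6), where 49 of the 61 symbols had a promoter entry.

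Other settings were the experiment taken as a fixed effect or dropped, a replicate block, median centring, quantile normalization, a filter on the dimmest 25% of genes, the mean of a gene's clusters, moderation with a trend and robust variances, and omitting every array and every experiment in turn. In unsorted experiment 1, deviations of untreated and sTM arrays of the same number correlated over all genes at 0.564 to 0.746 for the 4 numbers. For 2 of them an array of another number correlated more closely, so that pairing by number was not settled. The main fit of the unsorted arrays used the experiment as block and not these numbers, which entered only with the replicate block. Tests of every single-symbol cluster, of the other row of Rps4l, and of experiment 3 without 1 array were chosen after seeing the data. Figures used Python 3.11.15 with pandas 2.3.3 and matplotlib 3.10.9.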

Additional observations from a re-analysis of the deposited data

Results flagged for a closer look

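In replicate 3-2 of sTM-treated TM- DCs, 3 of the named genes read far below the other 5 arrays of the group: Rpl5 at 9.98 (others 11.21 to 11.94), Rps9 at 9.98 (others 11.22 to 11.89) and Rps6 at 10.99 (others 12.45 to 13.20). On the same array Rpl3l read far above the others, at 6.24 (others 5.77 to 5.89). Rpl3l was also far above its group in replicate 2-1 of unsorted sTM-treated DCs, at 6.39 (others 5.78 to 5.94), and Rps4l in replicate 2-1 of sTM-treated TM+ DCs, at 7.77 (others 7.10 to 7.26). These 6 values came from 144 combinations of a gene or mean and a group, and chance alone flags about 1 in 20 groups. The sorting difference was larger in experiment 4 than in experiment 3 for Rpl7l1, by 0.80 (adjusted p = 8.35e-05), and for Rps27l, by 0.69 (adjusted p = 0.00228). The treatment difference in sorted DCs was higher in experiment 4 than in experiment 3 for Rpl22, by 0.51 (adjusted p = 0.0101), for Rpl27a, by 0.48 (adjusted p = 0.0208), and for Rps3a1, by 0.48 (adjusted p = 0.0357). These 3 of 61 genes lie near the share of all genes that passed, 3.7%, and are given as single values.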

How the results depend on the processing

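The 29 members that passed for sorting (47.5%, beside 37.3% of all genes in either direction) became 9 with no experiment term (14.8%, beside 24.2%), 12 after quantile normalization (19.7%, beside 32.7%) and 6 without experiment 4 (9.84%, beside 12.4%), and were 40 with experiment as a fixed factor (65.6%, beside 39.9%) and 23 to 30 when 1 array was left out. In untreated cultures the 3 (4.92%, beside 21.1%) became 10 with experiment as a fixed factor (beside 24.3%), 5 without experiment 3 (beside 31.6%) and 0 without experiment 4 (beside 6.6%). In sTM cultures the 25 (41%, beside 24%) became 40 with experiment as a fixed factor (65.6%, beside 27.3%), 7 with no experiment term (11.5%, beside 11.5%), 15 after quantile normalization (24.6%, beside 20.8%), 11 without experiment 2 (18%, beside 18.2%) and 8 without experiment 4 (13.1%, beside 9.55%). The 3 treatment differences between experiments 3 and 4 (beside 9.16%) became 6 with trend and robust variances (beside 10.5%) and 1 to 22 when 1 array was left out, and the 2 sorting differences between them 2 to 20. The median sorting difference kept its direction, at 0.15 to 0.28, and the count of calls was 0 for treatment and the interaction, in each of the alternatives run. Fewer arrays enter where an experiment is left out, and otherwise the cause was not tested.

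For the paralog ratios, quantile normalization gave -0.14 for Rpl10l to Rpl10 and -0.18 for Rps4l to Rps4x, neither past the test. The ratio of Rpl10l to Rpl10 was -0.23 without experiment 3 and -0.26 without experiment 4, and that of Rps4l to Rps4x -0.24 without experiment 4 and -0.11 with the other row of Rps4l, none past the test. The ratio of Rpl7l1 to Rpl7 was 0.59 without experiment 3 (permutation, adjusted p = 0.0139) and turned to -0.078 without experiment 4 (permutation, adjusted p = 0.981).

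In experiments 2 to 4 the replicate numbers were not taken to pair the samples. Deviations of same-numbered arrays had 27 correlations between groups of an experiment, from -0.544 to 0.45, of which 9 were over 0.1. Those of experiment 4 were all positive, from 0.0823 to 0.35, so that pairing was not settled there. With a replicate block 21 members passed for sorting by limma (34.4%, beside 34.2% of all genes in either direction), with 20 of them higher (32.8%, beside 17%). Rps3a1 (adjusted p = 0.0682) and Rpl13 (adjusted p = 0.111) did not pass. The same block gave 3 in untreated and 18 in sTM cultures and 46 between experiments. It gave 0 for treatment, in sorted and in unsorted DCs, and for the interaction. These further counts stand without the share over all genes, and nothing about the family is read from them. Single clusters of this family may read related transcripts, low signals such as those of Rpl39l are near background, and 2 arrays per group and experiment limit every comparison within an experiment.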
